A study of Macaca mulatta with 5 samples.

Results

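Endothelial nuclei were picked out of single-nucleus RNA profiles of the rhesus macaque claustrum, a thin sheet of grey matter beside the insular cortex, and their barrier, transport and arterial to venous genes were described. The claustrum of 2 healthy, untreated male animals was profiled with a 10x Genomics 3' V3 kit after nuclei were isolated from frozen tissue. The animal aged 17 months gave 2 libraries and the animal aged 18 months gave 3, so the libraries of an animal repeat that animal and each age is 1 animal. Counts of unique molecular identifiers (UMIs), each standing for 1 captured RNA molecule, were given for 40005 nucleus barcodes.

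Nuclei were selected on their own measured counts. A nucleus was taken as endothelial when it held 1000 to 10000 UMIs, at least 5 UMIs of FLT1, CLDN5, VWF, ABCB1 and PECAM1 summed, and more of these than of the mural and fibroblast genes PDGFRB, NOTCH3, COL1A2 and DCN. It could hold at most 1 UMI of the neuronal genes GAD1, GAD2 and SLC17A7 and at most 2 of the microglial genes DOCK8, CSF1R and INPP5D. This gate took 333 of the 40005 barcodes. They were compared with the 29240 other barcodes under 10000 UMIs and with 64 nuclei taken by the reverse gate on the mural and fibroblast genes. The 15 gate genes chose the nuclei, so their values are given as a description and none was tested.

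Brain endothelial cells line the capillaries, arteries and veins of the brain and form the blood-brain barrier. Tight junctions seal the gaps between them, efflux pumps return many drugs and lipids to the blood, and carriers of the solute carrier (SLC) family bring in glucose, amino acids and vitamins. Wnt and Norrin ligands from neighbouring cells keep this state through beta-catenin and LEF1. Gene use also changes along the vessel, from arteries through capillaries to veins.

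The gate genes behaved as a set in the chosen nuclei. FLT1, the receptor VEGFR1, was seen in 88.9% of endothelial nuclei and in 1.36% of the other nuclei. CLDN5, the main claudin of the barrier, was seen in 86.2% and 1.32%, and the efflux pump gene ABCB1 in 79.9% and 3.27%. VWF, the von Willebrand factor gene, was seen in 75.7% of endothelial nuclei and in 11.1% of the others, the highest background of the 5 genes. PECAM1, an adhesion molecule of endothelial junctions, was seen in 61.3% and 2.08%. All 5 genes had a UMI in 110 nuclei, 4 of them in 122, 3 in 76, 2 in 14 and 1 alone in 11. The median gate sum was 15 UMIs and the highest was 79. The 24 nuclei just inside the threshold, with 5 gate UMIs, held 1371 CPM (UMIs of the summed nuclei, scaled to a total of 1000000) of 22 pan-endothelial genes outside the gate. The 38 nuclei just outside, with 4 gate UMIs, held 1677 CPM, and all 333 together held 7399 CPM, so nuclei at the edge carried less of this RNA than the set as a whole.

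One gate criterion removed nuclei that otherwise resembled the set. The microglial criterion alone turned away 158 nuclei, and 72 of them had no UMI of DOCK8 or CSF1R and failed on INPP5D only. These 72 nuclei held 9500 CPM of the pan-endothelial genes, more than the 7399 CPM of the chosen nuclei, and 9063 to 9942 CPM in each of the 5 libraries. INPP5D, a phosphatase gene best known from blood cells, had a UMI in 44.7% of the chosen nuclei as well, against 0.901% for DOCK8 and 2.4% for CSF1R. Without INPP5D in the criterion the gate took 427 nuclei. The turned-away nuclei stayed among the other nuclei in the comparisons below, and each comparison was repeated with the wider gate.

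Markers of other cells were present in the endothelial sums, some below and some above their level in the other nuclei. Of the 333 nuclei, 100 (30.0%) held at least 5 UMIs of oligodendrocyte markers or at least 3 of astrocyte or precursor markers and were treated as possible doublets, which left 233 in a repeat of each comparison. The 5 oligodendrocyte markers summed to 633 to 2490 CPM in the endothelial sums of the 5 libraries, against 2678 to 6314 CPM in the other nuclei. The 5 astrocyte markers summed to 128 to 1541 CPM against 558 to 1155 CPM, the upper value being that of the first 17-month library. The 6 mural markers summed to 516 to 1541 CPM against 69.0 to 106 CPM, and the 5 fibroblast markers to 252 to 636 CPM against 298 to 407 CPM, gate genes included. The 5 T and NK cell markers summed to 0 to 28.0 CPM against 28.8 to 36.8 CPM, with NKG7 at 0. The 3 red blood cell markers summed to 0 to 5.26 CPM against 1.02 to 2.03 CPM, with HBB at 0. The 4 ependymal markers summed to 50.4 to 94.98 CPM against 48.2 to 69.5 CPM, with FOXJ1 at 0. The part of these other cells in the results below was not tested. Endothelial nuclei had a median of 3648 UMIs, the other nuclei 2617. Across libraries all barcodes had medians of 2976 to 3485 UMIs and totals of 47512670 to 70896967 UMIs. Of 197 barcode sequences shared between libraries, 2 belonged to endothelial nuclei, and none was endothelial in both libraries.

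Endothelial nuclei made up 1.96% of the barcodes of the first 17-month library (156 nuclei, 95% Clopper-Pearson interval 1.66 to 2.29%) and 0.561% of the second (44 nuclei, 0.408 to 0.753%). The 18-month libraries held 0.725% (58 nuclei, 0.551 to 0.936%), 0.493% (47 nuclei, 0.362 to 0.655%) and 0.420% (28 nuclei, 0.280 to 0.607%). The first 17-month library stood above the other 4, and the second lay within the range of the 18-month libraries.

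**Figure D1:**
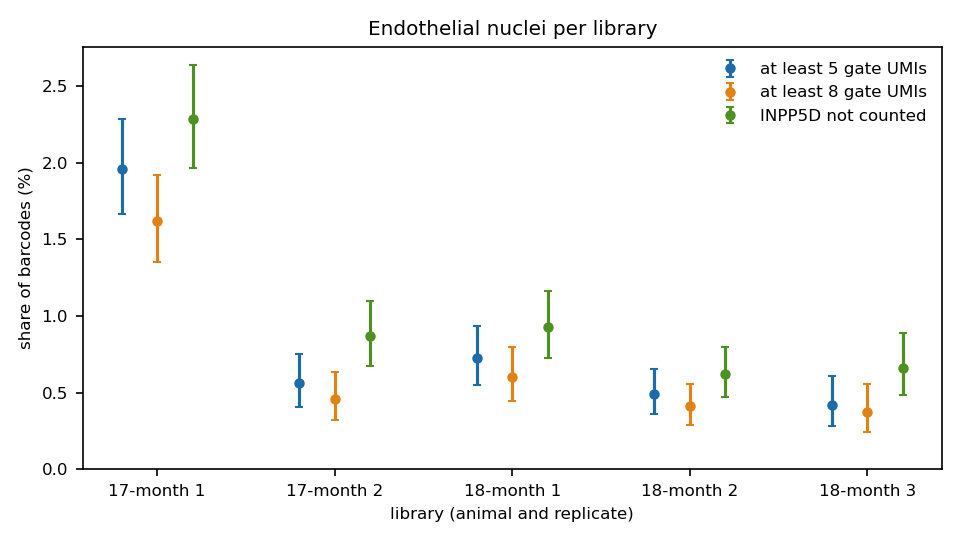
Share of all barcodes of a library (y axis, percent) that passed the endothelial gate, for the 5 libraries (x axis), with at least 5 gate UMIs, with at least 8, and with INPP5D left out of the microglial criterion. Points are shares and bars are 95% Clopper-Pearson intervals, which cover counting error only. The first 17-month library is highest under each of the 3 gates, at 1.96% with the gate as described.

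UMIs were summed per library and the endothelial sums were tested against the sums of all other nuclei with edgeR's quasi-likelihood test, the library being a block. Of 14754 genes tested, 1904 were higher (12.9%) and 2797 lower (19.0%) in endothelial nuclei, a call needing an adjusted p (Benjamini-Hochberg, over all genes) below 0.05 and a change of 1 or more on the log2 scale. With library sizes alone in place of TMM scaling the split was 2344 higher and 2134 lower, and the median of all genes moved by 0.23 from -0.28. The libraries came from 2 animals, so these p-values measure the spread between libraries. All values per library below are in the order of the 2 libraries of the 17-month animal and the 3 of the 18-month animal. Most genes named below were chosen for a large called change with the same direction in every library. Their separation of the groups therefore describes that choice and is no further test.

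Genes that mark endothelium in many organs were almost all higher. Of 22 such genes outside the gate, 21 were called higher and 0 lower, with a median log2 fold change of 4.93 against -0.28 over all genes tested. EMCN, which codes for the surface sialomucin endomucin, stood at 1260.3, 1406, 1187, 1294 and 1181 CPM in endothelial nuclei and at 7.1 to 15.3 CPM in the others (log2 fold change 6.58 ± 0.17 SE, edgeR adjusted p = 6.3e-305). All 5 endothelial values lay far above all 5 others. ADGRL4, an adhesion receptor gene of endothelium, stood at 1151, 991, 1045, 836 and 1062 CPM against 3.81 to 14.7 CPM (log2 fold change 6.52 ± 0.17 SE, edgeR adjusted p = 7.4e-303). CD34, a sialomucin gene shared with blood progenitors, was at 209 ± 78.3 CPM (SD, n = 5) with a log2 fold change of 6.61. CDH5, the cadherin of endothelial junctions, stood at 26.4, 78.4, 69.1, 57.8 and 128 CPM, with a log2 fold change of 6.34. PODXL, EGFL7, ENG and ROBO4 had log2 fold changes of 5.46, 5.43, 5.25 and 5.44. MCAM was the member that was not called, at 0.66. Of the 22 genes, 21 stood higher in the pooled endothelial nuclei than in each of 7 neuronal and glial marker classes, and 19 of these also stood above the mural and fibroblast nuclei. After each nucleus was thinned to 1000 UMIs, EMCN had a UMI in 60.1% of endothelial nuclei and 0.299% of oligodendrocyte-marker nuclei (medians before thinning 3648 and 2436 UMIs). Before thinning the share of endothelial nuclei was 80.5%. No chosen nucleus had fewer than 1000 UMIs, while 542 oligodendrocyte-marker nuclei were left out for that.

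**Figure D2:**
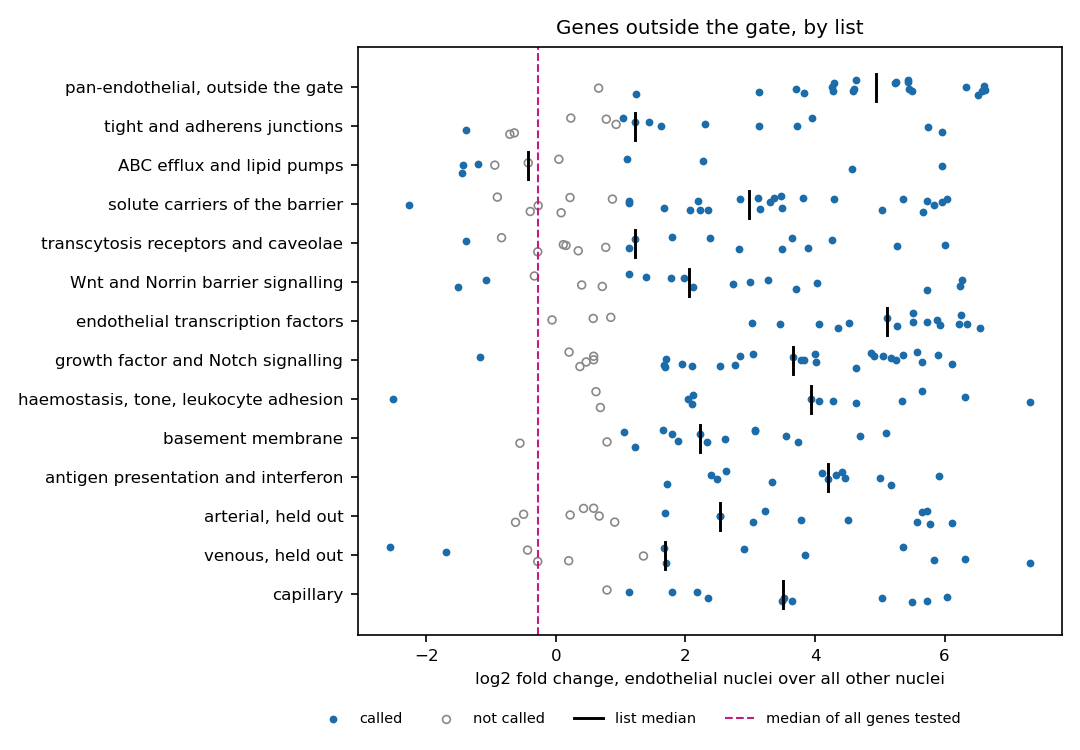
Log2 fold change of single genes (x axis, endothelial nuclei over all other nuclei) by list (y axis). Filled points are genes called by edgeR, open points genes tested and not called, black bars list medians and the dashed line the median of all genes tested, -0.28. Genes with 3 UMIs or fewer in endothelial nuclei are not drawn, though they count in the medians, and the pan-endothelial and transcription factor lists have medians of 4.93 and 5.11.

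The junction genes split between a few endothelial ones and many shared ones. Of 20 junction genes 17 were tested, 10 were higher and 2 lower, and the median log2 fold change was 1.21. OCLN, the tight junction protein occludin, stood at 216, 202, 173, 152 and 199.5 CPM against 1.42 to 3.76 CPM in the other nuclei (log2 fold change 5.74 ± 0.23 SE, edgeR adjusted p = 2.7e-140). CGNL1, which codes for the junction plaque protein paracingulin, stood at 417, 476, 518, 473 and 830.1 CPM against 4.21 to 8.82 CPM (log2 fold change 5.96 ± 0.17 SE, edgeR adjusted p = 9.8e-279). Both groups were fully separated for these genes, which were named for such a change. JAM2, a junctional adhesion molecule, MARVELD2, the tricellular junction protein tricellulin, and NECTIN2, a nectin of adherens junctions, had log2 fold changes of 3.72, 3.95 and 3.13. LSR, a second tricellular gene, was at 59.2 ± 22.5 CPM (SD, n = 5), log2 fold change 1.62. The scaffold gene TJP1 (ZO-1) was not called (log2 fold change 0.23 ± 0.14 SE, edgeR adjusted p = 0.18). It stood at 932, 1058, 971, 973 and 1085 CPM in endothelial nuclei and at 564 to 830.4 CPM in the others, and its highest glial class was the oligodendrocytes at 1018 CPM. JAM3 was lower, at 77.5, 162, 104, 116 and 104 CPM against 173 to 291 CPM (log2 fold change -1.39 ± 0.17 SE, edgeR adjusted p = 3.4e-15), and oligodendrocyte-marker nuclei held 392 CPM. The claudins CLDN1, CLDN3 and CLDN12 had 0 UMIs in the 333 nuclei, which allows up to 2.25 CPM each, and were not tested. CGN, cingulin, also had 0 UMIs against 200 in the other nuclei. It was called lower, but both levels were at or under this limit, and the call was lost under most other settings, DESeq2 among them.

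Among the ATP-driven pumps the drug efflux gene ABCG2 (BCRP) stood apart. It was at 1376, 1462, 1749, 1062 and 1357 CPM in endothelial nuclei and at 11.7 to 24.8 CPM in the others (log2 fold change 5.97 ± 0.17 SE, edgeR adjusted p = 7.9e-266). ABCB1 (P-glycoprotein), a gate gene and therefore not tested, was at 917 CPM in the pooled endothelial nuclei and at 17.1 CPM in the others. Of 11 pump genes tested, 4 were higher and 3 lower, with a median of -0.43, close to the -0.28 of all genes. ABCC6 and ABCA1, a cholesterol pump, were also higher, by 4.57 and 1.10. ABCA1 stood higher still in astrocyte-marker nuclei (174 CPM against 113 CPM). ABCC1, ABCC5 and ABCB8 were lower, at -1.46, -1.20 and -1.43. The calls of ABCA1 and ABCC5 were lost in at least 1 repeat each. ABCB4 was not matched in the files.

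Most listed carriers of the SLC families were higher. Of 30 carriers tested, 23 were higher and 1 lower, with a median log2 fold change of 2.98. SLC7A5 (LAT1), the carrier of large neutral amino acids, stood at 891, 868, 656, 626 and 902 CPM against 5.72 to 15.2 CPM (log2 fold change 6.04 ± 0.17 SE, edgeR adjusted p = 7.8e-280). SLC7A1 (CAT1), which carries arginine and lysine, stood at 2044, 2033, 2245, 1988 and 2442 CPM against 36.7 to 51.4 CPM (log2 fold change 5.36 ± 0.17 SE, edgeR adjusted p = 7.7e-221). The lowest endothelial value of SLC7A1 was many times its highest value elsewhere. SLC38A5, a glutamine carrier, was at 484 ± 146 CPM (SD, n = 5), with a log2 fold change of 5.84. SLC3A2, the partner chain of LAT1, was higher by 1.12.

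SLC2A1 (GLUT1), the glucose carrier of the barrier, stood at 727, 594, 885, 615 and 1149 CPM against 17.1 to 22.9 CPM (log2 fold change 5.03 ± 0.16 SE, edgeR adjusted p = 2.1e-214). It had a UMI in 49.8% of endothelial nuclei and 1.74% of oligodendrocyte-marker nuclei after thinning. MFSD2A, which imports lysophospholipids and restrains vesicle traffic, stood at 201, 123, 319, 279 and 247 CPM against 2 to 6.08 CPM (log2 fold change 5.72 ± 0.21 SE, edgeR adjusted p = 3.1e-158). The thiamine carrier SLC19A3 was at 269.9 ± 57 CPM (SD, n = 5; log2 fold change 5.97) and FLVCR2, a choline carrier of brain vessels, at 115 ± 49.2 CPM (5.66). Zinc and metal carriers were also higher, SLC39A10 at 3.50 and SLC39A8 at 4.29. The organic anion carrier SLCO1A2 was at 1187 ± 260.0 CPM with a log2 fold change of 3.37. Oligodendrocyte-marker nuclei held 180.2 CPM of it, the highest of the neuronal and glial classes. The monocarboxylate carrier SLC16A1 (MCT1) was higher by 2.34 on the log2 scale. SLCO1C1, a thyroid hormone carrier of rodent brain vessels, was not called, with 12 UMIs in all endothelial nuclei and 7.72 ± 7.35 CPM against 9.52 ± 2.64 CPM. SLC22A8 had 1 UMI and was not tested. SLC44A1, a choline carrier gene, was the 1 lower member (log2 fold change -2.27 ± 0.16 SE, edgeR adjusted p = 9.2e-44), with oligodendrocyte-marker nuclei at 1884 CPM. Of 32 carriers in the files, 25 stood higher in endothelial nuclei than in each of the 7 neuronal and glial classes.

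**Figure D3:**
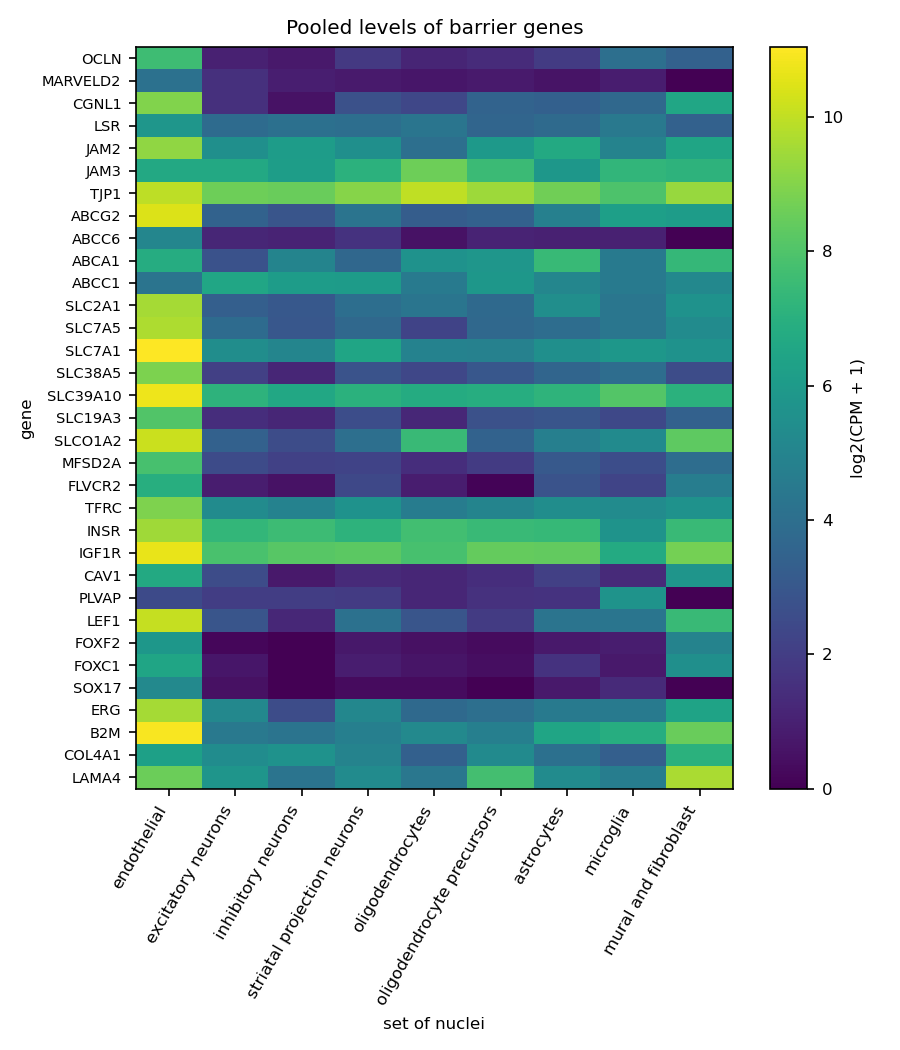
Levels of 33 barrier, signalling and basement membrane genes (y axis) in the endothelial nuclei, in 7 neuronal and glial marker classes and in the mural and fibroblast nuclei (x axis), as log2(CPM + 1) of the pooled UMIs. SLC7A1, ABCG2 and B2M are brightest in the endothelial column, whereas TJP1 is bright in every column and LAMA4 is brightest in the mural and fibroblast column.

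Receptors that ferry proteins across the endothelium were mostly higher. Of 19 genes of transcytosis and caveolae tested, 11 were higher and 2 lower, with a median of 1.23. TFRC, the transferrin receptor, stood at 447, 521, 617, 326 and 511 CPM against 28.1 to 40.3 CPM (log2 fold change 3.64 ± 0.15 SE, edgeR adjusted p = 1.0e-124). INSR, the insulin receptor, and IGF1R, the receptor of insulin-like growth factor 1, were higher by 1.79 and 2.37. The leptin receptor gene LEPR and CD320, the receptor that takes up vitamin B12, were higher by 3.90 and 2.83. The caveola genes CAV1, CAV2, CAVIN1 and CAVIN2 were higher by 5.26, 4.26, 3.49 and 6.01. LRP1, a lipoprotein receptor, was lower (log2 fold change -1.39 ± 0.2 SE, edgeR adjusted p = 2.5e-11). TFR2 was also called lower, with 1 UMI in endothelial nuclei, its level elsewhere being 6.69 times (counting interval 1.2 to 265) as high. PLVAP, which codes for the diaphragm protein of leaky vessels, had 6 UMIs in all, 5 of them in 1 library, and was not called (log2 fold change -0.28 ± 0.65 SE).

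Genes of Wnt and Norrin signalling included receptors, targets and inhibitors. Of 18 tested, 13 were higher and 2 lower, with a median of 2.05. LEF1, the factor that acts with beta-catenin, stood at 1033, 879, 1433, 915 and 1301 CPM against 6.3 to 15.6 CPM (log2 fold change 6.28 ± 0.17 SE, edgeR adjusted p = 5.6e-288). Of the receptor side, FZD4, the Norrin receptor, was at 75.2 ± 15.6 CPM (SD, n = 5; log2 fold change 3.71). FZD6 was at 3.28, the co-receptors LRP5 and TSPAN12 at 1.98 and 2.73, and ADGRA2 (GPR124), which works with RECK on WNT7 signals, at 4.04. RECK itself was not called (-0.33 ± 0.19 SE). The targets and inhibitors APCDD1, AXIN2 and NKD1 were higher by 3.00, 2.12 and 1.13. LRP6 and RNF43 were lower, at -1.08 and -1.51. Of the 20 genes, 11 stood above each neuronal and glial class, and 6 of those also above the mural and fibroblast nuclei.

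Transcription factors of endothelium had the highest median of the lists, 5.11, with 16 of 21 higher and 1 lower. ERG, which maintains endothelial identity, stood at 754, 818, 790.1, 620.5 and 830.1 CPM against 13.6 to 36.1 CPM (log2 fold change 5.11 ± 0.16 SE, edgeR adjusted p = 1.2e-213). MECOM was at 473 ± 80.6 CPM (SD, n = 5; log2 fold change 6.54), and ZNF366 at 246 ± 71 CPM (6.34). FOXC1 and FOXF2, forkhead factors needed for brain vessels, were higher by 6.26 and 6.23, and SOX17 by 5.73. The flow-induced factors KLF2 and KLF4 were higher by 6.23, from 20 UMIs, and 5.52. ELK3, FOXO1 and MEF2C were not called, at 0.58, 0.85 and -0.06. TFEC was called lower with 2 UMIs, its level elsewhere being 5.39 times (counting interval 1.49 to 44.6) as high.

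Among 31 genes of vascular growth factor, angiopoietin, TGF-beta and Notch signalling, 25 were higher and 1 lower, with a median of 3.67. KDR (VEGFR2) stood at 61, 28, 147, 105 and 95.8 CPM against 1.54 to 3.18 CPM (log2 fold change 5.06 ± 0.32 SE, edgeR adjusted p = 3.5e-53), and FLT4 (VEGFR3) was higher by 5.37. TEK and TIE1, the angiopoietin receptors, were higher by 3.83 and 4.63. Their ligand genes differed, ANGPT2 being higher by 1.66 and ANGPT1 not called at 0.37. ACVRL1 and ENG, the BMP9 receptor pair, were higher by 5.89 and 5.25, with the inhibitor SMAD6 at 4.91. DLL4, a Notch ligand, was at 60.9 ± 16.8 CPM (SD, n = 5; 6.11), and its receptor NOTCH4 at 61.4 ± 20 CPM (5.58). VEGFA, a ligand that endothelium receives, was the 1 lower gene (log2 fold change -1.17 ± 0.36 SE, edgeR adjusted p = 0.0036).

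Of 15 genes of haemostasis, vascular tone and leukocyte adhesion tested, 11 were higher and 1 lower, with a median of 3.94. PLAT (tissue plasminogen activator) and TFPI (tissue factor pathway inhibitor) were at 354 ± 64.2 CPM and 385 ± 96.5 CPM (SD, n = 5), with log2 fold changes of 5.35 and 4.63. NOS3, the nitric oxide synthase of endothelium, and EDN1, endothelin 1, were higher by 5.65 and 5.66. The adhesion genes ICAM1 and VCAM1 were higher by 4.07 and 6.32, and SELE (E-selectin) by 7.32 from 13 UMIs against 4. ENPP2 was lower (log2 fold change -2.51 ± 0.18 SE, edgeR adjusted p = 2.7e-42), and oligodendrocyte-marker nuclei held 816 CPM of it. Of 18 genes in the files, 14 stood above each neuronal and glial class in pooled nuclei. Of those, 11 also stood above the mural and fibroblast nuclei, and TFPI did not.

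All 17 basement membrane genes in the files were tested, 14 were higher and 0 lower, with a median of 2.22. The integrin gene ITGA1 and the fibronectin gene FN1 were at 368 ± 67.5 CPM and 463 ± 95.8 CPM (SD, n = 5), log2 fold changes 5.10 and 4.70. SPARC, a matricellular gene, stood at 219, 162, 522, 684 and 662 CPM, lower in both 17-month libraries than in each 18-month library. COL4A2 was not called (0.79), COL4A1 and LAMA4 were higher by 1.65 and 2.61. Of the 17 genes, 13 stood above each neuronal and glial class in pooled nuclei. Only 5 of those also stood above the mural and fibroblast nuclei. ITGA1, FN1, COL4A1, COL4A2 and LAMA4 stood below the mural and fibroblast nuclei.

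Antigen presentation and interferon genes were higher throughout, 13 of 13 tested, with a median of 4.20. B2M, the light chain of MHC class I, stood at 1755, 1058, 2150.0, 2750.2 and 2339 CPM against 31.5 to 67.6 CPM (log2 fold change 5.17 ± 0.17 SE, edgeR adjusted p = 3.5e-177). Microglia-marker nuclei, the next highest class, held 116 CPM. NLRC5, the activator of class I genes, and the proteasome gene PSMB8 were higher by 5.01 and 4.46. The interferon-induced genes IFI27 and MX1 were higher by 5.92 and 4.42. CD74, the invariant chain of class II, was higher by 3.34, and CIITA by 1.72 from 22 UMIs. TAP1, TAP2 and IFITM3 were not matched in the files.

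Outside the lists, the 10 called genes with the highest fold change at 20 CPM or more held 8 with a symbol. TNFSF10 (TRAIL) stood at 620.2, 431, 501, 499.6 and 758 CPM against 2.57 to 10.9 CPM (log2 fold change 6.22 ± 0.17 SE, edgeR adjusted p = 5.9e-264). RAMP2, which pairs with the adrenomedullin receptor, was at 108 ± 37.7 CPM (SD, n = 5; log2 fold change 6.44), and ADGRF5 (GPR116) at 164 ± 22.5 CPM (6.43). The others were APOLD1 (6.65), MYCT1 (6.35), FAM167B (6.25), the sulfotransferase gene SULT1B1 (6.51) and the cytidine deaminase gene CDA (6.71). The 10 with the lowest fold change included ADAM28, RHOH and LCP2, genes of blood and immune cells, each with 1 or 2 endothelial UMIs. ADAM28 was 67.4 times (counting interval 12.1 to 2662) as high in the other nuclei. The gate kept nuclei with more than 2 UMIs of the microglial genes out of the set and among the others. Low values of immune cell genes therefore describe that choice and are no further test. PTCHD4, with 14 UMIs, was at -3.99.

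The same lists were set against the nearest vascular nuclei. The 64 mural and fibroblast nuclei numbered at least 10 in 3 libraries, the first 17-month and the first and second 18-month library, which left 261 endothelial and 48 mural and fibroblast nuclei. Of 4188 genes tested with edgeR, 378 were higher (9.03%) and 262 lower (6.26%) in endothelial nuclei, with a median of 0.01 over all genes. DESeq2 called 198 and 141, and 244 and 153 were called without the second 18-month library. Values per library follow that order, and the 64 nuclei hold both mural cells and fibroblasts. In these 3 libraries the endothelial sums held 1028016 UMIs and the mural and fibroblast sums 148543. A gene could thus pass the filter on low counts through endothelial UMIs alone, which leans the counts of list members toward higher ones.

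Barrier carriers separated the vascular nuclei. Of 26 carriers tested 12 were higher and 4 lower, with a median of 1.85, and of 11 capillary genes 8 were higher and 0 lower, with a median of 3.30. SLC7A1 stood at 2044, 2245 and 1988 CPM in endothelial and at 113, 45.3 and 0 CPM in mural and fibroblast nuclei (log2 fold change 5.26 ± 0.51 SE, edgeR adjusted p = 2.4e-05). SLC2A1 stood at 727, 885 and 615 CPM against 80.6, 0 and 23.6 CPM (log2 fold change 4.31 ± 0.56 SE, edgeR adjusted p = 1.6e-04). ABCG2 stood at 1376, 1749 and 1062 CPM against 145, 67.9 and 23.6 CPM (log2 fold change 4.15 ± 0.45 SE, edgeR adjusted p = 4.8e-05). None of these values overlapped between the groups, for genes named by a change with the same direction in every library. SLC38A5 had 473 endothelial UMIs and 0 in mural and fibroblast nuclei, at least 22.8-fold higher by a floor of 3 counts over the group. MFSD2A, with 2 UMIs in mural and fibroblast nuclei, was 18 times (counting interval 4.93 to 149) as high in endothelial nuclei.

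Surface receptors and endothelial factors also differed. FLI1 and EMCN were higher by 5.13 and 5.02 on the log2 scale. KDR and ACKR1, the venular chemokine receptor, had 0 mural and fibroblast UMIs, at least 4.38-fold and 5.83-fold higher. ITGA6, with 1 UMI there, was 80.5 times (counting interval 14.4 to 3185) as high in endothelial nuclei. Of 13 antigen presentation and interferon genes in the files only 7 were tested. All 7 were higher, with a median of 2.70, B2M by 2.70. NLRC5, with 114 UMIs against 0, passed the filter on endothelial UMIs alone, so this count leans toward higher genes. Calls were lost with DESeq2, those of CD74, MX1 and PSMB8 among them. Outside the lists the zinc exporter SLC30A1, RAMP3, ELOVL7 and S100A10 had 0 UMIs in mural and fibroblast nuclei, with bounds of 8.48-fold, 8.09-fold, 7.08-fold and 7.61-fold. These genes passed the filter on endothelial UMIs alone and were picked by their fold change, so their values are a description.

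Other list members were lower in endothelial than in mural and fibroblast nuclei. The basement membrane list split, with 3 higher, 3 lower and 8 not called of 14, and a median of -0.36. NID1, nidogen 1, stood at 59.4, 190.0 and 99.9 CPM against 242, 566 and 614 CPM (log2 fold change -1.96 ± 0.34 SE, edgeR adjusted p = 9.8e-04). LAMC1 and COL18A1 were lower, at -1.53 and -1.49, and the COL18A1 call was lost with DESeq2. LRP1 and CYP1B1 were at -2.13 and -3.98. The phosphate carrier SLC20A2 was at -1.65 and the manganese exporter SLC30A10 at -1.83. NR2F2, a venous factor used below to split nuclei, was lower at -1.16, a call lost with DESeq2. The gene furthest down with UMIs in both groups was CEMIP, at 37.9, 34.5 and 21 CPM against 468, 2218 and 2221 CPM (log2 fold change -5.14 ± 0.5 SE, edgeR adjusted p = 2.4e-05). COL6A3 had 0 endothelial UMIs and was at least 36.9-fold lower, a call also lost with DESeq2. RGS5, a pericyte marker outside the gate, was not called between the 2 sets. It stood at 249, 924 and 1125 CPM in endothelial nuclei against 935, 430.0 and 496 CPM, lower in the 17-month and higher in both 18-month libraries.

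Arterial and venous nuclei were separated by 8 genes. A nucleus was put on the arterial side with at least 2 UMIs of VEGFC, EFNB2, SEMA3G and BMX and more of them than of the venous genes IL1R1, TSHZ2, NR2F2 and ACKR1, and on the venous side by the reverse. This put 25 nuclei (7.51%) on the arterial side, 141 (42.3%) on the venous side and 167 on neither. BMX had 0 UMIs. Of all nuclei, 60 had UMIs of both gene groups and 95 of neither. The arterial side held 12, 1, 5, 3 and 4 nuclei in the 5 libraries and the venous side 56, 23, 27, 22 and 13. Only the first 17-month library had 10 nuclei on both sides, so no test was run and pooled levels are given with exact Poisson intervals, which cover counting error only. Venous nuclei had a median of 4369 UMIs, arterial 3231 and the rest 2958. A nucleus with more UMIs reaches 2 UMIs more easily, so the side shares move with depth.

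Of 20 arterial genes held out of the split, 5 were higher on the arterial than on the venous side with intervals apart, 0 were lower with intervals apart and 15 had overlapping intervals. ARL15, a gene of the ARF-like GTPase family, was at 3488 CPM (3125 to 3882) on the arterial side and 609 CPM (551 to 671) on the venous side. The arterial value lay above the venous one in each of the 5 libraries, 1517 to 11692 CPM against 521 to 789 CPM. The highest arterial value, in the second 17-month library, came from 1 nucleus with 36 UMIs of ARL15. A single nucleus held 93 of the 336 arterial UMIs of ARL15. FBLN5, an elastic fibre gene, was at 291 CPM (193 to 420.1) and 2.98 CPM (0.361 to 10.8), from 28 and 2 UMIs, with 0 in 1 arterial library. ALPL, an alkaline phosphatase of brain vessels, was at 291 CPM (193 to 420.1) and 74.5 CPM (55.3 to 98.2). For ALPL the arterial value was 468 CPM without the first 17-month library and 191 CPM without possible doublets, 1 nucleus held 12 of its 28 arterial UMIs, and 1 arterial library had 0. NOTCH4 was at 135 CPM (71.9 to 231) and 38.7 CPM (25.3 to 56.7), SOX17 at 93.4 CPM (42.7 to 177) and 23.8 CPM (13.6 to 38.7). In nuclei of neither side NOTCH4 was at 78 CPM (56.7 to 105) and SOX17 at 39 CPM (24.4 to 59.1). Both intervals overlapped those of the arterial side. ARL15, at 769 CPM (699 to 845) in nuclei of neither side, FBLN5, at 16 CPM (7.3 to 30.3), and ALPL, at 106 CPM (81.2 to 137), did not overlap it. For SOX17, 8 of the 9 arterial UMIs came from the first 17-month library, and without it the sides stood at 19.5 and 20.4 CPM. The intervals of DLL4, 104 CPM (49.8 to 191) and 46.2 CPM (31.4 to 65.5), overlapped. TGFB2 was at 20.8 CPM (2.51 to 75) and 84.9 CPM (64.3 to 110.0), and STMN2 at 83.1 CPM (35.9 to 164) and 106 CPM (82.6 to 133). GJA4 and GJA5, arterial connexins, had 1 arterial UMI each, and 14 of the 20 endothelial UMIs of GJA4 lay on the venous side.

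Of 18 venous genes held out of the split, 4 were higher on the venous side than in nuclei of neither side with intervals apart, 1 was lower and 13 overlapped. ADGRG6 was at 277 CPM (239 to 319.8) on the venous side and 99.3 CPM (75 to 129) in nuclei of neither side, higher in 5 of 5 libraries. VCAM1 was at 99.8 CPM (77.3 to 127) and 39 CPM (24.4 to 59.1), higher in 4 of 5. TMSB10, a thymosin gene, was at 625 CPM (567 to 688) and 367 CPM (319 to 421), with the arterial side at 685 CPM (530.0 to 872). VCAN, the versican gene, was the 1 lower member, at 10.4 CPM (4.19 to 21.5) and 62.1 CPM (43.2 to 86.3). SLC38A5 was at 472 CPM (422 to 527) and 454 CPM (400.0 to 513), and PTGDS at 246 CPM (209.6 to 286) and 277 CPM (235 to 324). The endothelial UMIs of SELE (13), SELP (6) and PLVAP (6) all lay in venous nuclei. MGP, listed as arterial, was at 457 CPM (332 to 613) on the arterial side, 317 CPM (276 to 363) on the venous side and 142 CPM (112 to 177) in the rest. With at least 3 UMIs asked of a side, MGP stood at 372 CPM on the arterial and 380.4 CPM on the venous side. HEY2, also listed as arterial, was at 51.9 CPM (16.9 to 121) and 47.7 CPM (32.6 to 67.3). LCN2 had 0 UMIs.

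For most barrier carriers the intervals of the sides overlapped. SLC2A1 was at 893 CPM (714 to 1103) on the arterial side, 773 CPM (708 to 842) on the venous side and 723 CPM (655 to 797) in the rest. MFSD2A was at 259.6 CPM (168 to 383), 203 CPM (169.9 to 239.6) and 250.0 CPM (210.4 to 295). SLC39A10 and TFRC overlapped in the same way. SLC7A5 was at 623 CPM (475 to 802) on the arterial and 858 CPM (789 to 931) on the venous side. INSR was at 571 CPM (430.2 to 743) on the arterial side, 606 CPM (549 to 668) on the venous side and 851 CPM (777 to 931) in the rest.

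**Figure D4:**
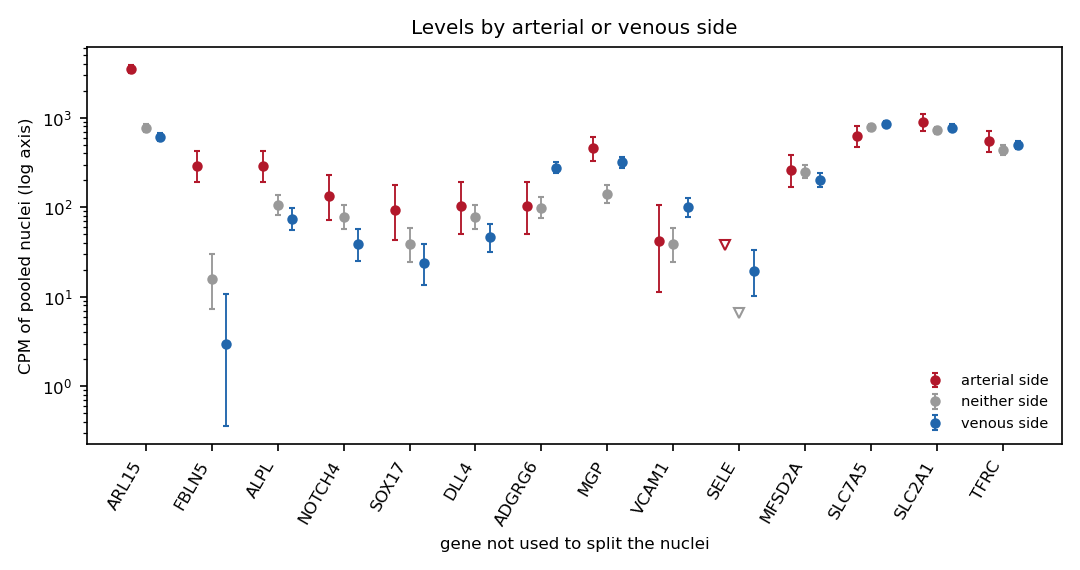
Pooled CPM (y axis, log scale) of 14 genes not used for the split (x axis) in arterial, venous and other endothelial nuclei, with 95% exact Poisson intervals. Open triangles mark the upper limit where no UMI was found. ARL15, FBLN5 and ALPL are highest on the arterial side, ADGRG6 and VCAM1 on the venous side, and MFSD2A, SLC2A1 and TFRC overlap across all 3.

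The animals were compared on the endothelial sums, 2 libraries against 3. Of 5173 genes tested with edgeR, here called by adjusted p alone, 49 (0.947%) were higher and 45 (0.87%) lower in the 17-month animal. These counts rested on single libraries: 1 higher and 11 lower were left without the first 18-month library, and 3 and 9 with at least 8 gate UMIs. Animal and age cannot be told apart with 1 animal at each age.

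Of the listed genes other than markers of other cells, 5 were lower and 0 higher in the 17-month animal. The number of these genes tested is not given, so the count is not set against the 0.87% lower over all genes. Called markers of other cells went both ways and follow below. SPARC stood at 219 and 162 CPM in the 17-month libraries and at 522, 684 and 662 CPM in the 18-month libraries (log2 fold change -1.66 ± 0.24 SE, edgeR adjusted p = 0.0067). CD74 stood at 59.4 and 33.6 CPM against 138, 163 and 208 CPM (log2 fold change -1.68 ± 0.34 SE, edgeR adjusted p = 0.033). SLC29A1, a nucleoside carrier, stood at 259 and 190.4 CPM against 475, 457 and 487 CPM (log2 fold change -1.03 ± 0.23 SE, edgeR adjusted p = 0.043). ALPL and MCAM were lower by -1.61 and -1.36 on the log2 scale. Without possible doublets ALPL stood at 76.7 and 29.7 CPM against 64.1, 166 and 257 CPM, so that its values overlapped. The calls of ALPL and MCAM were lost in 8 and 10 of 12 repeats, those of SLC29A1 and CD74 in 5 and 3, and that of SPARC in none.

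Markers of other cells moved with the animal as well. RGS5, the pericyte marker, stood at 249 and 325 CPM against 924, 1125 and 934 CPM (log2 fold change -1.83 ± 0.23 SE, edgeR adjusted p = 0.0017). All 6 mural markers summed to 516 and 532 CPM in the 17-month endothelial nuclei and to 1226, 1541 and 1141 CPM in the 18-month ones. MYH11, the smooth muscle myosin, went the other way, with 34 UMIs in the 17-month and 1 in the 18-month endothelial nuclei. Without possible doublets, SPARC stood at 189 and 141 CPM against 440, 787 and 334 CPM, and RGS5 at 236 and 275 CPM against 788, 1234 and 757 CPM. Oligodendrocyte markers summed to 633 and 1506 CPM against 1934, 2114 and 2490 CPM, and the oligodendrocyte gene CLDN11 was lower in the 17-month animal at -2.39, a call lost without possible doublets. Nuclei that were not possible doublets still held 458 to 796 CPM of oligodendrocyte and 116 to 520 CPM of astrocyte markers. The astrocyte markers summed to 1541 and 594 CPM against 971, 515 and 128 CPM, overlapping between the animals. Of single markers, SLC1A2, an astrocyte glutamate carrier, and PCDH15, a precursor gene, were higher in the 17-month animal by 2.07 and 1.66. The part of these other cells in the calls was not tested.

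Outside the lists, AOX4, an aldehyde oxidase gene, stood at 1.65 and 0 CPM against 151, 137 and 176 CPM (log2 fold change -6.46 ± 0.61 SE, edgeR adjusted p = 7.7e-05), from 1 UMI against 83, 119 times (counting interval 20.8 to 4759) as high in the 18-month animal. CD86, LPAR1 and 1 gene without a symbol were also among the 5 lowest, CD86 at -3.48. LPAR1 stood at 26.4 and 39.2 CPM against 108, 142 and 199.5 CPM, but without possible doublets at 24.7 and 29.7 CPM against 0, 26.2 and 0 CPM, which turned its direction, and other nuclei held 128 to 344 CPM. THSD4 stood at 82.5 and 112 CPM against 4.32, 10.5 and 23.9 CPM (log2 fold change 3.01 ± 0.54 SE, edgeR adjusted p = 0.014), and the collagen gene COL24A1 and the factor TOX were higher by 2.87 and 2.46. The calls of THSD4 and COL24A1 were among those lost without the first 18-month library.

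**Figure D5:**
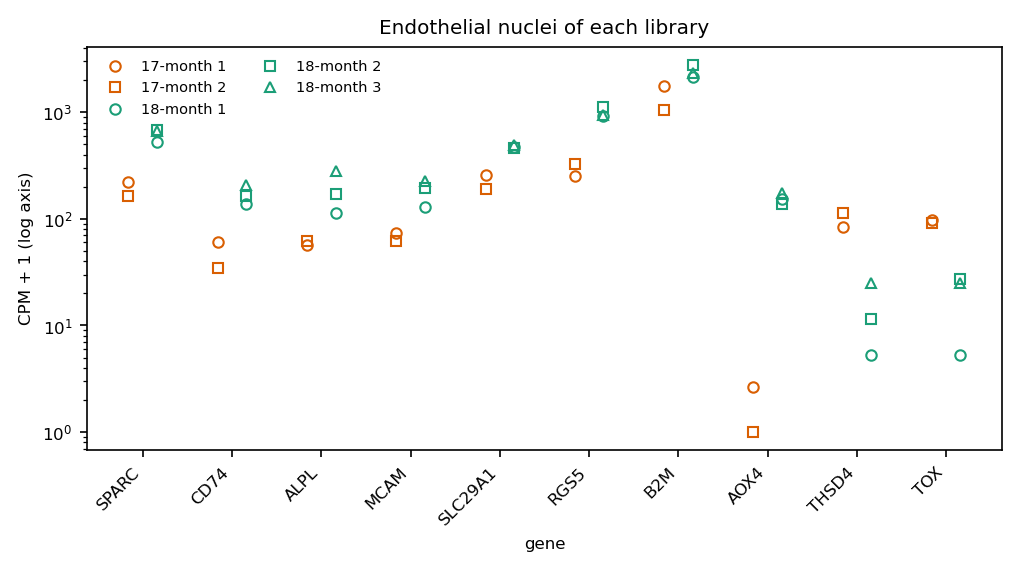
Levels of 10 genes (x axis) in the endothelial sum of each library, as CPM + 1 on a log axis, orange for the 17-month and green for the 18-month animal. SPARC, CD74, ALPL, MCAM, SLC29A1, RGS5, B2M and AOX4 lie lower in both 17-month libraries, THSD4 and TOX higher, and AOX4 is near 0 in the 17-month animal.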

How the data were processed

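RNA was measured in nuclei of 5 libraries, 2 from the 17-month and 3 from the 18-month animal. The authors deposited raw UMI count matrices, whose file headers name Cell Ranger 5.0.1. The submitters' processing notes also name CASAVA 1.8, Seurat and the builds Mmul_10 and mm10, with no role given. How barcodes were filtered is not given in the sources used here.

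Nuclei were gated on raw counts, and UMIs were summed per library and set. Sums with at least 10 nuclei were tested with edgeR's quasi-likelihood test (TMM, filterByExpr, robust), with the 15 gate genes kept in library sizes and out of the tests. The SE of a log2 fold change is its size over the square root of F. The test shares its estimate of spread across genes, on which very small p-values rest. DESeq2 was an alternative. The tests were tried on simulated counts. The gate, members and gene lists were chosen with earlier results of these data known, and leaving INPP5D out of the gate was chosen after seeing the data. Up to 6 called genes per list with the same direction in every library were named, with defining members, and per comparison 10 genes at each end outside the lists at 20 CPM or more (5 for the animals). The choice of other names followed a look at their values. Some listed genes are counted but not reported here by name. Possible doublets were marked by markers of a second cell type, with no doublet caller. Nothing in the labels says that the libraries came from separate tissue pieces. Intervals and floors cover counting error only. No column of other samples was present.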

Additional observations from a re-analysis of the deposited data

Results flagged for a closer look

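The endothelial to other contrast was compared between the animals with an interaction term in edgeR. Of 14754 genes tested, 129 differed, 46 with a higher fold change in the 17-month and 83 in the 18-month animal. Of them, 11 were among the 237 listed genes tested or the genes named in the first contrast. The named genes had been chosen for their fold change there. The 237 leave out named genes outside the lists, such as TNFSF10. The 11 therefore give no share to set against the 129 of 14754. In each of the 11 the fold change was smaller in the 17-month animal, the direction of 83 of all 129. Such a difference can lie in the endothelial or in the other nuclei. For SPARC, a matricellular gene, the log2 fold change was 2.53 in the 17-month and 4.57 in the 18-month animal, a difference of -2.10 ± 0.27 SE (edgeR adjusted p = 1.2e-10). CD74, the class II invariant chain, stood at 2.17 and 4.19, and the difference was -2.07 ± 0.43 SE (edgeR adjusted p = 6.4e-04). A difference of -1.20 ± 0.25 SE was found for B2M, the class I light chain, from 4.54 and 5.70 (edgeR adjusted p = 7.1e-04). For TNFSF10, the TRAIL ligand, the log2 fold change was 5.74 in the 17-month and 6.72 in the 18-month animal, a difference of -1.03 ± 0.27 SE (edgeR adjusted p = 0.029). Its endothelial levels overlapped between the animals, at 620.2 and 431 CPM against 501, 499.6 and 758 CPM. The other nuclei held 10.9 and 7.02 CPM of it against 6.70, 2.57 and 5.89 CPM. SLC38A5, a glutamine carrier, stood at 5.36 and 6.31, and the difference was -1.001 ± 0.28 SE (edgeR adjusted p = 0.04). A difference of -0.89 ± 0.25 SE was found for ERG, an endothelial factor, from 4.68 and 5.53 (edgeR adjusted p = 0.049). The endothelial levels of ERG, given above, overlapped between the animals as well.

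For PODXL, a surface sialomucin, the log2 fold change was 5.01 in the 17-month and 5.87 in the 18-month animal, a difference of -0.91 ± 0.26 SE (edgeR adjusted p = 0.048). NR2F2, a venous factor, stood at 2.26 and 3.53, and the difference was -1.33 ± 0.32 SE (edgeR adjusted p = 0.01). A difference of -1.93 ± 0.46 SE was found for EFNB2, an arterial ligand, from 0.19 and 2.06 (edgeR adjusted p = 0.0093). For GJA4, an arterial connexin, the log2 fold change was 2.24 in the 17-month and 6.29 in the 18-month animal, a difference of -4.11 ± 1.07 SE (edgeR adjusted p = 0.026). LAMA3, a laminin chain, stood at 1.71 and 2.80, and the difference was -1.14 ± 0.32 SE (edgeR adjusted p = 0.049). GJA4 rested on 20 endothelial UMIs. In endothelial nuclei it stood at 6.60 and 5.60 CPM against 17.3, 36.8 and 31.9 CPM. In the other nuclei GJA4 stood at 1.51 and 0.56 CPM against 0.53, 0.22 and 0.14 CPM. Mural and oligodendrocyte markers were also higher in the endothelial sums of the 18-month animal, and their part in these differences was not tested. Animal and age cannot be told apart.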

How the results depend on the processing

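Among the genes named by the rule above, no fold change tested under an alternative reversed. Other listed genes were not followed singly. In the first contrast the median of the 5 astrocyte markers was 0.48, and -1.17 to 0.77 under the alternatives. Without possible doublets LPAR1 had too few UMIs to be tested, and its values turned to 24.7 and 29.7 CPM against 0, 26.2 and 0. Among the untested side levels MGP turned with 3 UMIs asked of a side, and SOX17 without the first 17-month library. The first contrast kept both counts within 1.5 times under every setting run except the 17-month libraries alone, where 1700 genes were lower. Leaving out each library gave 1838 to 1996 higher and 2259 to 2535 lower. Against mural and fibroblast nuclei DESeq2 called 198 higher and 141 lower, and leaving out a library gave 244 to 327 and 153 to 257. Without a filter on low counts that split was 523 to 202, with the median of all genes at 0.47. Between the animals 13 higher and 26 lower were called with DESeq2, 143 and 124 without a filter, 3 and 9 with 8 gate UMIs, and 18 and 18 without possible doublets. Leaving out a library gave 1 to 95 higher and 11 to 73 lower there. An unadjusted p under 0.05 was found for 777 of those genes with edgeR and 400 with DESeq2. The causes were not tested.

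With the replicate block, 37 genes were higher and 53 lower between the animals. The replicate numbers are only shared numbers, with correlations of 0.10 and 0.0087 over the 2 pairs. Without the replicate block the first contrast gave 1770 and 2538 and the second 345 and 233. INPP5D left out of the gate gave 2043 and 2912, 413 and 249, and 41 and 50 in the 3 comparisons. Of single genes and settings, 19, 46 and 56 calls were lost in them, and 1532, 750 and 116 held.

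The shares moved with the denominator of 1000 to 10000 UMIs, to 2.56% in the first 17-month library and 1.13%, 0.713% and 0.674% in the 18-month libraries. Nuclei thinned to 1000 UMIs and gated at 2 rather than 5 UMIs, which changes both choices at once, gave 3.12%, 1.24%, 1.15%, 0.765% and 0.826%. There the second 17-month library lay above each 18-month library. The first 17-month library fell to 1.62% with 8 gate UMIs. Without INPP5D the second 17-month and the last of the 18-month libraries stood at 0.868% and 0.661%. The test of arterial against venous nuclei was not run, since 1 library had enough nuclei on both sides. Depth limits genes with few endothelial UMIs, 3 UMIs being 2.25 CPM.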

Other observations

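Both genes with the lowest fold change between the animals differed in the other nuclei as well. AOX4 had 6 and 2 UMIs in the other nuclei of the 17-month libraries and 71, 69 and 68 in those of the 18-month libraries. ENSMMUG00000052293, which the files give no symbol, had 5 and 5 UMIs against 101, 43 and 66. In endothelial nuclei it stood at 4.95 and 5.60 CPM against 289, 258 and 216 CPM. These genes were chosen for their difference between the animals.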
